A study of Homo sapiens with 12 samples.

Results

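The genes described here are 10 genes of epithelial cells, namely the splicing regulators ESRP1 and ESRP2, the protease inhibitors SPINT1 and SPINT2, the protease ST14, the adhesion and junction genes CDH1 and EPCAM, the transcription factor GRHL2 and the keratins KRT8 and KRT18. They were chosen by gene symbol from 20042 genes with a value on all arrays. The choice turned on the levels of ESRP2 and SPINT2 in the CNOT1 and CNOT3 lines, which were low with and without Dox. Differences of these lines from the CNOT2 and Luci lines are therefore given as a description and without a test. A filter on low values, which left out genes whose mean over the arrays was below 2.96 on the log2 scale, was passed by 8 of the 10 genes. ESRP1 and GRHL2 were below it, with means of 2.46 and 2.66.

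Gene expression was measured with 12 one-colour oligonucleotide arrays in HEK-293T cells, a line from human embryonic kidney that is known to express neuronal filament genes. All cells carried a stably integrated pINDUCER plasmid (pIND), from which doxycycline (Dox) induces a short hairpin RNA. The hairpin was directed against CNOT1, CNOT2 or CNOT3, subunits of the CCR4-NOT complex that deadenylates mRNAs and regulates transcription, or against firefly luciferase (Luci) as a control. Cells were left untreated (-Dox) or received 1 µg/ml Dox for 4 days (+Dox), and the knock-downs were made to find the genes that depend on each subunit. For the CNOT2 and Luci lines each Dox state has 2 arrays, and for the CNOT1 and CNOT3 lines each has 1. The methods speak of stable cell clones and the labels name 1 line per hairpin, so in a comparison of lines the hairpin and the clone cannot be told apart. For the Luci -Dox array of replicate 2 the title says no Dox but another label says Dox, and the title was followed.

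Epithelial cells are held together by E-cadherin, the product of CDH1, and by tight junctions and desmosomes, and their cytoskeleton contains the keratin pair KRT8 and KRT18. ESRP1 and ESRP2 are RNA-binding proteins that set epithelial splice forms of transcripts such as FGFR2, CD44, ENAH and CTNND1. SPINT1 and SPINT2 are membrane-bound Kunitz-type inhibitors of serine proteases such as matriptase, the product of ST14. EPCAM is an epithelial adhesion molecule, and GRHL2 is a transcription factor that activates epithelial genes including CDH1.

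The targeted mRNAs were lower with Dox in their own lines. CNOT1 was at 7.23 without and 5.07 with Dox in the CNOT1 line, CNOT3 was at 8.96 and 6.80 in the CNOT3 line, and CNOT2 was at 9.86 and 8.96 on the replicate 1 and at 9.72 and 8.38 on the replicate 2 arrays of the CNOT2 line. Without Dox, CNOT3 in the CNOT3 line, at 8.96, was already below the 9.76 to 10.68 of the other lines. CNOT2 in the CNOT2 line without Dox, at 9.86 and 9.72, was below the 9.98 to 10.76 of the others. CNOT1 in the CNOT1 line without Dox, at 7.23, lay within the 6.35 to 7.24 of the others. The cause was not tested. The deposited values are quantile-normalized log2 intensities, and the median of all spots is 3.34 on every array. They carry no detection call, so a low value cannot be told from background, and the small number of arrays limits the precision.

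**Figure D1:**
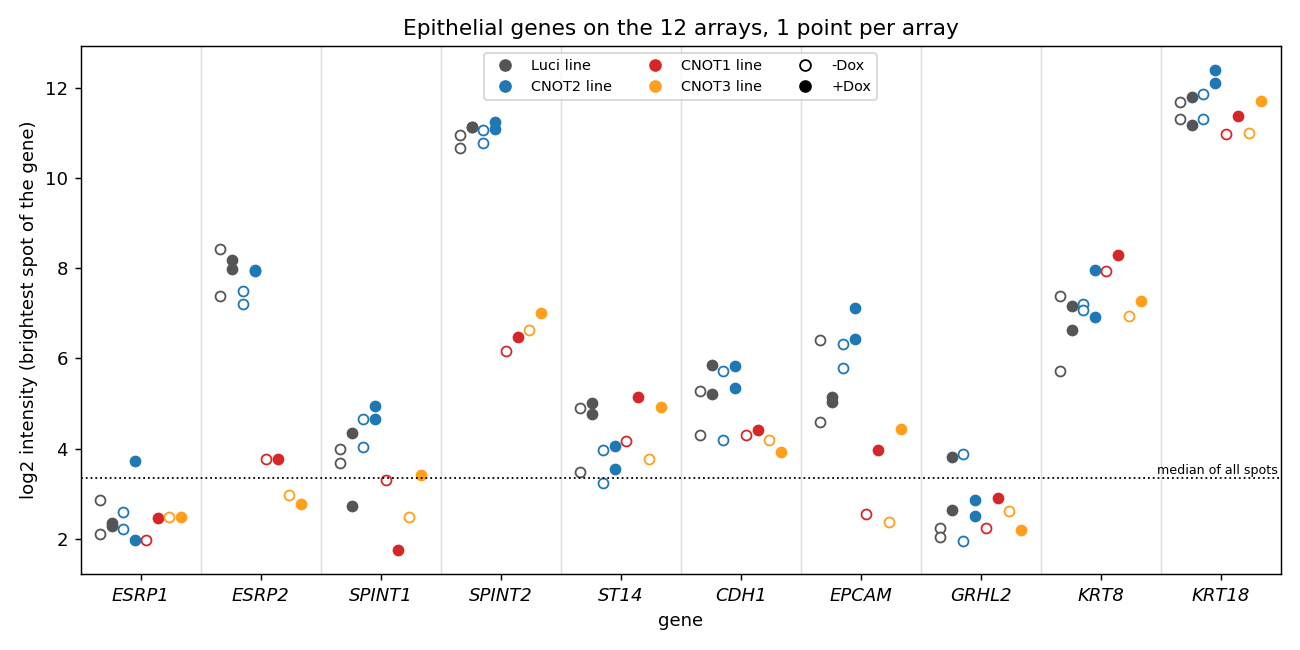
Log2 intensity (y axis) of the brightest spot of each of the 10 genes (x axis) on the 12 arrays, with 1 point per array, colours for the 4 lines and open or filled points without and with Dox. ESRP2 and SPINT2 have 4 low points, those of the CNOT1 and CNOT3 lines, which lie between 2.78 and 3.78 and between 6.17 and 7.01, and the dotted line marks the median of all spots at 3.34.

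ESRP2 was high on all arrays of the CNOT2 and Luci lines and near the median of all spots in the CNOT1 and CNOT3 lines. Its brightest spot was at 7.49 and 7.20 without and at 7.93 and 7.95 with Dox on the CNOT2 arrays, and at 8.43 and 7.39 without and at 7.99 and 8.18 with Dox on the Luci arrays. In the CNOT1 line it was at 3.78 without and 3.76 with Dox, and in the CNOT3 line at 2.98 without and 2.78 with Dox. The groups of lines did not overlap, since the highest CNOT1 or CNOT3 array lay below the lowest of the other 8 arrays. The mean over the 4 CNOT1 and CNOT3 arrays was 3.32 and that over the 8 CNOT2 and Luci arrays 7.82, a difference of -4.50 on the log2 scale. No fold is given, since the low values cannot be told from background. RNA was taken from whole cultures, so fewer cells with the transcript and less transcript per cell cannot be told apart.

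All 10 spots named ESRP2 showed the same separation. Whether these spots carry different probes or repeat 1 probe was not examined, so they are not counted as separate measurements. The single spots ranged from 1.88 to 4.22 on the CNOT1 and CNOT3 arrays and from 6.56 to 8.43 on the CNOT2 and Luci arrays. The difference between the means of all spots was -4.46. Among themselves the 10 spots varied with an SD of 0.44 to 0.62 on the arrays with low values and of 0.20 to 0.33 on the others. ESRP1, the other member of the family, was low everywhere, between 1.97 and 2.49 in the CNOT1 and CNOT3 lines and between 1.97 and 3.73 in the CNOT2 and Luci lines, and its only value above 2.86 was the second CNOT2 +Dox array.

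**Figure D2:**
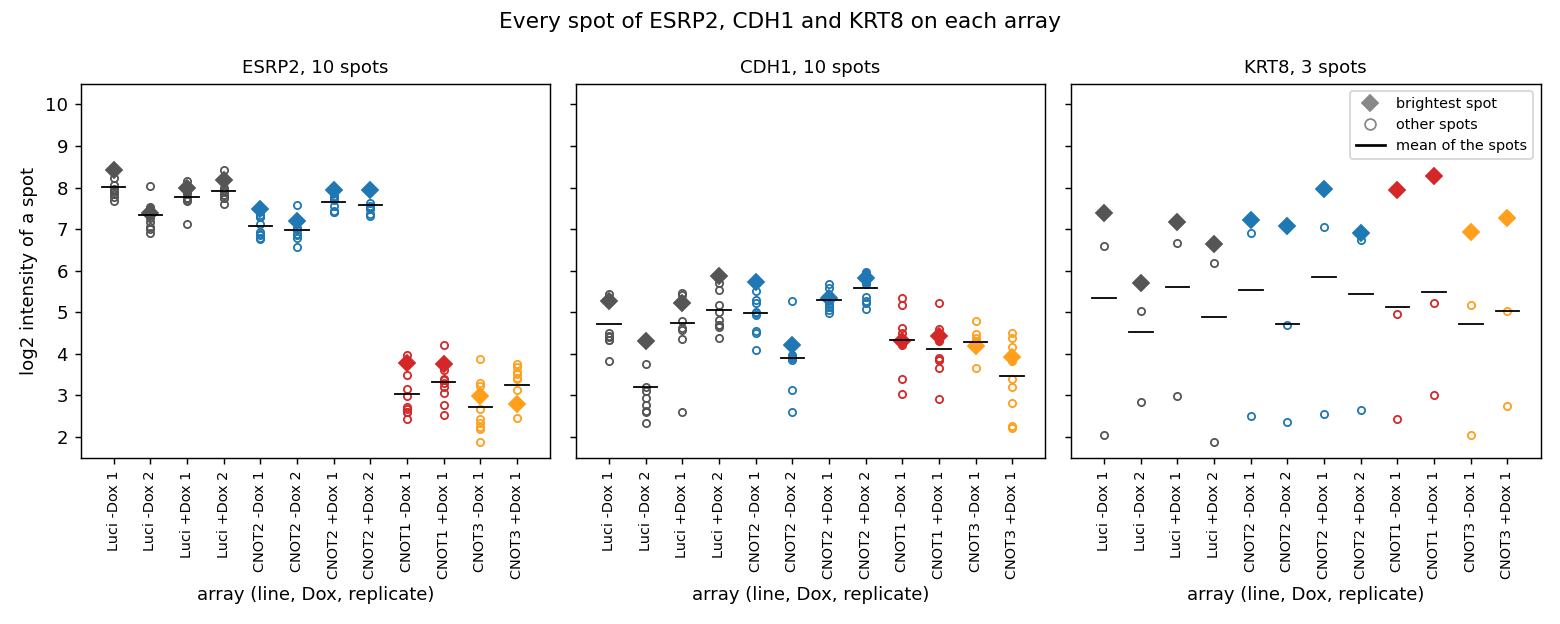
Log2 intensity (y axis) of each spot of ESRP2 (10 spots), CDH1 (10 spots) and KRT8 (3 spots) on each of the 12 arrays (x axis), with the brightest spot as a diamond, other spots as circles and the mean of the spots as a bar. The spots of ESRP2 lie between 1.88 and 4.22 in the CNOT1 and CNOT3 lines and between 6.56 and 8.43 in the others, whereas those of CDH1 overlap between lines and those of KRT8 differ from each other.

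SPINT2 had the same arrays low. Its only spot was at 11.05 and 10.78 without and at 11.08 and 11.23 with Dox on the CNOT2 arrays, and at 10.95 and 10.65 without and at 11.13 and 11.12 with Dox on the Luci arrays. It was at 6.17 and 6.47 in CNOT1 -Dox and +Dox cells and at 6.62 and 7.01 in CNOT3 -Dox and +Dox cells. The 4 values of the CNOT1 and CNOT3 lines thus lay below all 8 others but above the median of all spots, unlike those of ESRP2 in the CNOT3 line. The difference between the means, 6.57 and 11, was -4.43 or 21.6-fold, the 14th lowest among 15033 genes. The choice of SPINT2 used its levels in the CNOT1 and CNOT3 lines, so the difference and its rank describe the choice. The SD was 0.21 over the Luci -Dox arrays and 0.19 over the CNOT2 -Dox arrays (n = 2 each). The CNOT1 and CNOT3 groups have 1 array each and thus no SD.

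SPINT1, which encodes the sister inhibitor, was at lower intensity and varied more between arrays. It was at 4.04 and 4.66 without and at 4.65 and 4.95 with Dox on the CNOT2 arrays, and at 4.00 and 3.69 without and at 2.73 and 4.35 with Dox on the Luci arrays. In the CNOT1 line it was at 3.31 without and 1.75 with Dox, and in the CNOT3 line at 2.49 without and 3.42 with Dox. The first Luci +Dox array, at 2.73, lay among the values of the CNOT1 and CNOT3 lines, and the mean difference was -1.39. The transcript of their protease target ST14 ranged from 3.77 to 5.15 in the CNOT1 and CNOT3 lines and from 3.24 to 5.02 in the CNOT2 and Luci lines, a mean difference of 0.39 with overlapping groups.

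Promoter sequences were taken from RefSeq (GRCh38.p14), where entries from 250 bases before to 50 after a start site matched SPINT1, at 2 start sites, and KRT8. ESRP1, ESRP2, SPINT2, ST14, CDH1, EPCAM, GRHL2 and KRT18 had no match in the table used. The windows of SPINT1 are shown because this inhibitor gene has 2 start sites whose sequences differ in the motifs searched, and the array does not tell transcripts from the start sites apart. They are written 5′ to 3′ on the plus strand, with GC boxes (GGGCGG on either strand) and E-boxes of the kind bound by ZEB and SNAI repressors (CACCTG on either strand) in capitals.
SPINT1 start site 1 (chr15:40843798-40844097): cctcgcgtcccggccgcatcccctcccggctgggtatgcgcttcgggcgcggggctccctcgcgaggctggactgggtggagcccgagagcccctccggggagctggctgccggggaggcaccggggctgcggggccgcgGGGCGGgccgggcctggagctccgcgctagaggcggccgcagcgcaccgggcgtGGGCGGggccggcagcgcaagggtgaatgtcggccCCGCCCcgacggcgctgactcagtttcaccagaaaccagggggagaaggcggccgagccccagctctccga
SPINT1 start site 2 (chr15:40844227-40844526): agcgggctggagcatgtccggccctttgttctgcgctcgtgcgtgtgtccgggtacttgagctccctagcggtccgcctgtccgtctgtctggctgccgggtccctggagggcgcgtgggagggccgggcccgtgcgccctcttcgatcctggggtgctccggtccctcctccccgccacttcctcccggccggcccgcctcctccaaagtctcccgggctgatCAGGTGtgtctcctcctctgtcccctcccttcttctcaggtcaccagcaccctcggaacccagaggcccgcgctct
The window of start site 1 holds 3 GC boxes and no E-box, and that of start site 2 holds 1 E-box, which begins 26 bases before the start, and no GC box. A GC box was found in 45.0% and an E-box in 20.6% of 35116 windows of this length, and neither was found in the KRT8 window (chr12:52926420-52926719, minus strand). The GRHL motif AACCGGTT, found in 0.134% of the windows, was in none of the 3. The windows of SPINT1 had GC contents of 77.7% and 69.7% with 38 and 25 CpG dinucleotides, and that of KRT8 had 50.7% with 2, beside a median of 58.7% and 14 over all windows. The motifs do not overlap, and a match is a description of the sequence and not a site shown to be bound.

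EPCAM was lower in the CNOT1 and CNOT3 lines, most of all without Dox. It was at 5.79 and 6.31 without and at 6.42 and 7.12 with Dox on the CNOT2 arrays, and at 4.60 and 6.40 without and at 5.15 and 5.04 with Dox on the Luci arrays. In the CNOT1 line it was at 2.56 without and 3.96 with Dox, and in the CNOT3 line at 2.38 without and 4.44 with Dox. All 4 values lay below the other 8, but the CNOT3 +Dox array at 4.44 was close to the first Luci -Dox array at 4.60. The mean difference was -2.52 on the log2 scale, of which no fold is given because the values without Dox in the CNOT1 and CNOT3 lines lay below the median of all spots. Against replicate 1 of the Luci line in the same Dox state, EPCAM differed by -2.04 and -1.19 in the CNOT1 line and by -2.22 and -0.71 in the CNOT3 line without and with Dox.

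CDH1 was lower in the CNOT1 and CNOT3 lines than on most other arrays, with overlap. Its brightest spot was at 5.72 and 4.20 without and at 5.35 and 5.83 with Dox on the CNOT2 arrays, and at 5.28 and 4.31 without and at 5.22 and 5.86 with Dox on the Luci arrays. It was at 4.31 and 4.42 in CNOT1 -Dox and +Dox and at 4.19 and 3.92 in CNOT3 -Dox and +Dox cells. The second CNOT2 -Dox and the second Luci -Dox array were as low as these 4 arrays. The mean difference was -1.01 for the brightest spot and -0.64 for the mean of its 10 spots. The mean of its spots was lowest, at 3.19, on the second Luci -Dox array, whose labels disagree, and at 3.47 in CNOT3 +Dox cells.

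GRHL2 had a mean below the median of all spots, with values from 2.19 to 2.90 in the CNOT1 and CNOT3 lines and from 1.96 to 3.89 in the CNOT2 and Luci lines. Its 2 highest values, 3.89 and 3.81, were single arrays whose partner of the same group was at 1.96 and 2.65.

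The keratins did not follow ESRP2 and SPINT2. KRT18 was at 10.96 and 11.36 in CNOT1 -Dox and +Dox cells and at 11 and 11.71 in CNOT3 -Dox and +Dox cells, against 11.17 to 12.39 with a median of 11.73 on the CNOT2 and Luci arrays. The groups overlapped and the mean difference was -0.44. The brightest spot of KRT8 ranged from 6.93 to 8.28 in the CNOT1 and CNOT3 lines and from 5.71 to 7.96 in the CNOT2 and Luci lines, a mean difference of 0.60. The spots of KRT8 disagreed, since the next brightest spot ranged from 4.96 to 5.21 in the CNOT1 and CNOT3 lines and from 4.68 to 7.04 in the others, and the third lay between 1.87 and 3.00 on all arrays. With the mean of its spots KRT8 differed by -0.15, so that the direction of its difference depends on the spot.

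**Figure D3:**
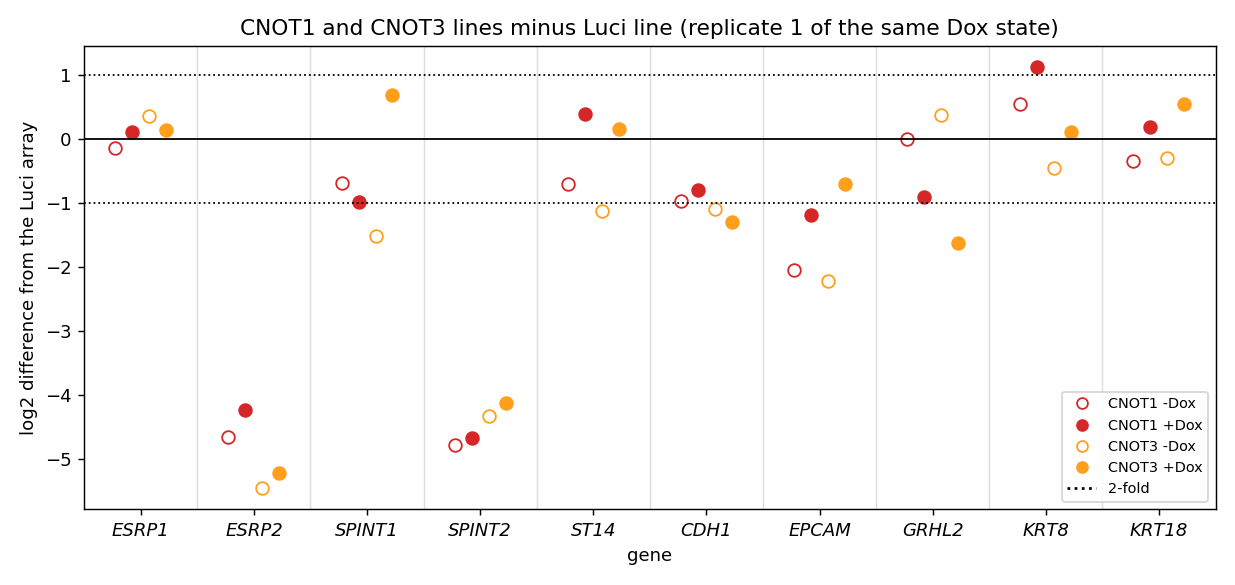
Log2 difference (y axis) of each gene (x axis) between an array of the CNOT1 or CNOT3 line and replicate 1 of the Luci line in the same Dox state, with colours for the lines, open or filled points without and with Dox and dotted lines at a 2-fold difference. ESRP2 lies between -4.23 and -5.45 and SPINT2 between -4.12 and -4.78 in all 4 comparisons, while KRT8, KRT18, ST14 and ESRP1 scatter around 0.

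Against the Luci arrays of replicate 1, 3 of the 8 genes that passed the filter were more than 2-fold lower in the CNOT1 line in both Dox states, namely ESRP2, SPINT2 and EPCAM, beside 4.98% of 15033 genes. In the CNOT3 line they were ESRP2, SPINT2 and CDH1, again 3 of 8, beside 3.22% of all genes. None of the 8 was more than 2-fold higher in both Dox states, beside 4.82% of all genes for CNOT1 and 2.77% for CNOT3. The median difference of the 8 genes was -0.86 for CNOT1 and -0.84 for CNOT3, and that of all genes 0.02 and 0.03. ESRP2, SPINT2 and EPCAM were the 3 of 8 genes with all 4 CNOT1 and CNOT3 arrays below all 8 others, as were 4.95% of all genes. The 2 comparisons share the Luci arrays, the genes were chosen on differences of this kind, and nothing is read from these shares. CDH1 was no longer past 2-fold in both Dox states in the CNOT3 line with the mean of its spots, with the mean of both Luci replicates or with Luci replicate 2 as control. The brightest spot of KRT8 was higher in the CNOT1 line by 0.835 on average over both Dox states with Luci replicate 1 as control. This was 1.39 with the mean of both Luci replicates and 1.94 with replicate 2. The absence of higher genes among the 8 thus holds for Luci replicate 1 as control only.

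The levels of ESRP2 and SPINT2 differed from Luci in both Dox states. ESRP2 differed from Luci by -4.65 without and -4.23 with Dox in the CNOT1 line and by -5.45 and -5.21 in the CNOT3 line. SPINT2 differed by -4.78 and -4.66 in the CNOT1 line and by -4.33 and -4.12 in the CNOT3 line. Low levels in both Dox states were what the choice of these genes used, so these values describe the choice. With Luci replicate 2 as control, the mean over both Dox states was -4.02 for ESRP2 and -4.57 for SPINT2 in the CNOT1 line and -4.91 and -4.07 in the CNOT3 line.

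The genes beside ESRP2 and SPINT2 on the chromosome were compared with them. Of the 5 genes compared on either side of each in RefSeq order, none had its CNOT1 and CNOT3 arrays all below the others. This held for 4.95% of all genes, so nothing is read from this count. Beside ESRP2 the mean differences ranged from -1.25 (SLC12A4) to 0.74, with a median of 0.32. Against Luci, SLC12A4 differed by -1.53 and -1.48 in the CNOT3 and by -1.29 and -0.04 in the CNOT1 line without and with Dox. SLC12A4 was thus more than 2-fold lower in both Dox states in the CNOT3 line, while DDX28 was higher by 1.14 and 1.26 in the CNOT1 line. Beside SPINT2 the mean differences ranged from -0.46 (CATSPERG) to 1.01 (SIPA1L3), with a median of 0.11, and SIPA1L3 was higher by 2.14 and 1.77 in the CNOT1 line. These neighbours were chosen after the values of ESRP2 and SPINT2 were seen.

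Differences between Dox states were tested within the lines, and the CNOT2 and Luci lines were tested against each other in each Dox state. The choice of ESRP2 and SPINT2 used their levels with and without Dox in the CNOT1 and CNOT3 lines, so for these genes the Dox differences in those lines are given as a description only. With limma on the 8 arrays of the CNOT2 and Luci lines, and on all 12 arrays for the CNOT1 and CNOT3 lines, none of the genes tested passed an adjusted p of 0.05 in any of 9 comparisons. The called share was 0% of 15031 genes in each of the 5 comparisons of the CNOT2 and Luci lines and 0% of 15033 in each of the 4 that involve the CNOT1 or CNOT3 line. At an unadjusted p under 0.05 there were 602 genes for CNOT2 +Dox against -Dox, 806 for CNOT2 +Dox against Luci +Dox, 401 for CNOT2 -Dox against Luci -Dox, 419 for Luci +Dox against -Dox and 353 for the difference between the Dox effects of these lines, 383 and 465 for Dox in the CNOT1 and CNOT3 lines, and 386 and 431 for their Dox effects minus that in the Luci line. For the CNOT1 and CNOT3 lines, which have no replicates, the fit borrows the spread of the CNOT2 and Luci groups. The genes that did not pass include the targeted CNOT1, CNOT2 and CNOT3 mRNAs, although these were lower with Dox in their own lines. A gene that changed could thus miss the threshold in this fit. A p that misses the threshold does not show that values were equal, so 95% confidence intervals are given.

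For SPINT2 the Dox effects were small and of 1 sign. SPINT2 was higher with Dox in 6 of 6 pairs of arrays, by 0.03 to 0.47. The largest value, 0.47, came from the replicate 2 pair of the Luci line. For every gene this pair includes the array with the disagreeing labels, so it may not compare Dox states. In the CNOT2 line the mean difference was 0.24 (SE 0.27, interval -0.39 to 0.87, adjusted p = 1 by limma), and in the Luci line it was 0.33 (SE 0.27, interval -0.31 to 0.96). In the CNOT1 and CNOT3 lines it differed by 0.30 and 0.39. The Dox effect in the CNOT2 line differed from that in the Luci line by -0.09 (interval -0.98 to 0.81).

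For ESRP2 the pairs went in both directions, with Dox higher in 3 of 6 pairs. In the CNOT2 line it was higher by 0.44 and 0.75, with a mean of 0.60 (SE 0.38, interval -0.32 to 1.51, adjusted p = 1 by limma). In the Luci line the 2 pairs differed by -0.44 and 0.79. In the CNOT1 and CNOT3 lines, where it was near background, the differences were -0.02 and -0.20. With the mean of its 10 spots all pairs but the first Luci pair, at -0.25, were higher with Dox, by 0.28 to 0.59.

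EPCAM had the largest single Dox difference among the 10 genes, in the CNOT3 line, while SPINT1, ST14 or CDH1 differed more than EPCAM in some other pairs. EPCAM was higher with Dox by 1.40 in the CNOT1 and by 2.06 in the CNOT3 line, and by 0.63 and 0.81 in the CNOT2 line. In the Luci line it differed by 0.55 and -1.36, the latter between 6.40 without and 5.04 with Dox on the array pair with the disagreeing labels. The difference in the CNOT3 line had an SE of 0.84 and an interval from 0.05 to 4.07, and its unadjusted p of 0.0456 became an adjusted p of 1 in limma. In CNOT2 +Dox against Luci +Dox cells EPCAM was higher by 1.68 (SE 0.60, interval 0.25 to 3.10, unadjusted p = 0.0272, adjusted p = 0.893 by limma), with both CNOT2 arrays above both Luci arrays. Without Dox the CNOT2 line differed from Luci by 0.55 (interval -0.87 to 1.97), and this value was -0.35 without the first and 1.45 without the second Luci -Dox array. The Dox effect in the CNOT3 line minus that in the Luci line was 2.47 (SE 1.03, adjusted p = 1 by limma), and it was 3.37 without the first and 1.57 without the second Luci -Dox array. For the CNOT2 line the same difference was 1.13 (SE 0.84, adjusted p = 1 by limma).

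**Figure D4:**
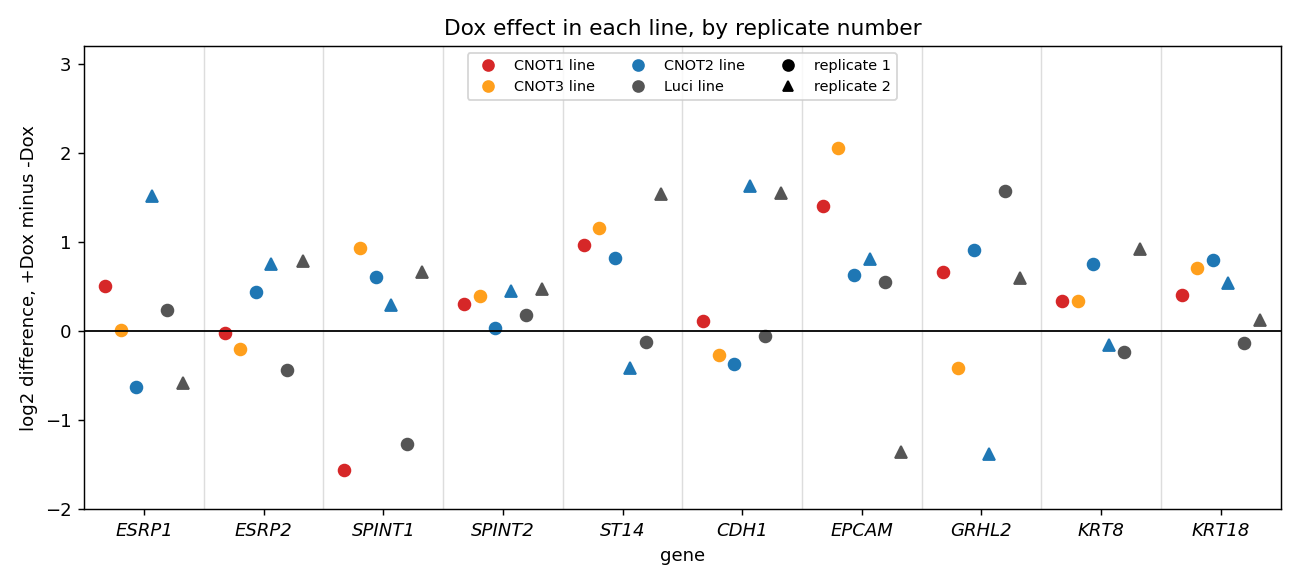
Log2 difference between the +Dox and the -Dox array (y axis) for each gene (x axis), with 1 point per line and replicate number, circles for replicate 1 and triangles for replicate 2. SPINT2 lies between 0.03 and 0.47 in all 6 pairs, EPCAM between -1.36 and 2.06, and CDH1 is at 1.63 and 1.55 in the replicate 2 pairs but at 0.11 or below in replicate 1.

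KRT18 was higher with Dox by 0.40, 0.71, 0.80 and 0.54 in the pairs of the CNOT lines and differed by -0.13 and 0.12 in the Luci line. The mean in the CNOT2 line was 0.67 (SE 0.35, interval -0.17 to 1.51, adjusted p = 1 by limma), and the Dox effect in this line exceeded that in the Luci line by 0.68 (SE 0.50, interval -0.51 to 1.86). The brightest spot of KRT8 differed by 0.34 in both the CNOT1 and the CNOT3 line and by -0.23 to 0.92 in the others, whereas the mean of its 3 spots was higher with Dox in all 6 pairs, by 0.26 to 0.73.

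CDH1 differed with Dox on the replicate 2 arrays of both lines that have them, 1 of which carries the disagreeing labels. It was higher with Dox by 1.63 in the CNOT2 and 1.55 in the Luci line on the replicate 2 arrays, and differed by -0.37 and -0.06 on the replicate 1 arrays. With the mean of its 10 spots the corresponding values were 1.69 and 1.85 in replicate 2 and 0.31 and 0.03 in replicate 1. In the CNOT1 and CNOT3 lines the brightest spot differed by 0.11 and -0.27. The Dox effects in the CNOT2 and Luci lines differed by -0.12 (SE 0.83, interval -2.10 to 1.87, adjusted p = 1 by limma).

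The differences of the protease genes had no common direction. SPINT1 differed by -1.56 in the CNOT1 pair, by -1.27 in the first Luci pair and by 0.29 to 0.93 in the other 4 pairs. In CNOT2 +Dox against Luci +Dox cells it differed by 1.26 (SE 0.54, interval -0.03 to 2.55, adjusted p = 0.936 by limma), and this was 0.45 without the first Luci +Dox array and 2.07 without the second. ST14 differed by 0.97 and 1.16 in the CNOT1 and CNOT3 pairs and between -0.42 and 1.54 in the others. Its difference between CNOT2 +Dox and Luci +Dox cells was -1.10 (SE 0.52, interval -2.33 to 0.14, adjusted p = 0.979 by limma). Without a test, 1 of the 8 genes was more than 2-fold higher with Dox in the CNOT1 line (EPCAM) beside 4.99% of all genes and 1 was more than 2-fold lower (SPINT1) beside 3.55%. In the CNOT3 line 2 of 8 were higher (EPCAM and ST14) beside 5.79%, and none was lower beside 4.26%. The median Dox difference of the 8 genes was 0.32 for CNOT1 and 0.55 for CNOT3, compared with 0.01 for all genes in both.

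Across the 12 arrays ESRP2 and SPINT2 were correlated with r = 0.97, and across the 8 arrays of the CNOT2 and Luci lines with r = 0.60. The first value reflects the separation between lines, since the 4 arrays of the CNOT1 and CNOT3 lines lie apart, and the arrays share lines and replicate numbers. The genes most like ESRP2 over the 12 arrays were NEFM (r = 0.99), KIAA0182 (0.98), DLC1 (0.98), CT45A5 (0.97) and EMX1 (0.97). NEFM, a neurofilament subunit, was between 8.63 and 10.41 in the CNOT1 and CNOT3 and between 14.45 and 14.93 in the CNOT2 and Luci lines. The genes most like SPINT2 were CT45A1 (r = 0.99), RBP7 (0.99), CT45A5 (0.99), PLAT (0.99) and FAM131C (0.99). CT45A1 and CT45A5, near-identical cancer-testis genes whose spots may share transcripts, were between 2.77 and 4.31 in the CNOT1 and CNOT3 and between 9.11 and 10.2 in the CNOT2 and Luci lines. There were 121 genes with r over 0.9 to ESRP2 and 172 to SPINT2. Within the 8 arrays the pairs among the 10 genes ranged from an r of -0.79 (ST14 and EPCAM) to 0.90 (SPINT2 and CDH1). EPCAM and KRT18 had an r of 0.78, and EPCAM and ESRP2 one of -0.57.

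Other genes of these pathways were described from lists, none of whose members passed the test in any comparison. Lower and higher refer here to more than 2-fold against replicate 1 of the Luci line in both Dox states, which held for 4.98% and 4.82% of all genes in the CNOT1 and for 3.22% and 2.77% in the CNOT3 line. Of 14 genes of the membrane protease network that passed the filter, 4 were lower in the CNOT1 line (PLAT, PLAU, MST1 and PRSS8) and 1 was higher (MST1R), and 3 were lower in the CNOT3 line (PLAT, MST1 and PLAU). MST1R had means of 3.995 over the CNOT1 and CNOT3 arrays and 4.095 over the CNOT2 and Luci arrays with overlapping ranges, so it was not higher over all control arrays. PLAT, tissue plasminogen activator, was between 7.89 and 9.07 in the CNOT1 and CNOT3 and between 11.45 and 12.3 in the CNOT2 and Luci lines. PLAU, urokinase, was between 5.58 and 7.25 in the former and between 6.80 and 9.25 in the latter, so the lines overlapped. PRSS8, the membrane-anchored protease prostasin, ranged from 3.64 to 4.95 in the CNOT1 and CNOT3 lines and from 5.51 to 8.97 in the others. MET, the receptor for hepatocyte growth factor, was between 10.21 and 10.93 in the former and between 10.78 and 11.43 in the latter. The median difference of this list was -0.42 for CNOT1 and -0.29 for CNOT3, beside 0.02 and 0.03 for all genes.

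Of 34 junction genes that passed the filter, 2 were lower (F11R and MARVELD3) and 1 was higher (MARVELD2) in the CNOT1 line, and 1 was lower (PVRL4) and 1 higher (MARVELD2) in the CNOT3 line, shares near or below those of all genes. MARVELD2, which encodes tricellulin of the tight junction, was higher than in Luci cells by 4.35 and 4.41 in the CNOT1 and by 2.48 and 3.37 in the CNOT3 line without and with Dox. It ranged from 6.93 to 8.87 in these lines and from 4.45 to 6.02 in the others, the reverse of ESRP2 and SPINT2. The catenin gene CTNNB1, which links E-cadherin to the cytoskeleton, was between 10.66 and 10.89 in the former and 10.36 and 10.95 in the latter. For F11R, MARVELD3 and PVRL4 the CNOT1 and CNOT3 arrays overlapped the others. The median difference of the junction list was -0.35 for CNOT1 and -0.10 for CNOT3. Of 7 other keratins that passed, KRT86 was higher in the CNOT1 line, with overlap between the groups of lines, and none was lower.

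Among 7 epithelial transcription factors that passed, GRHL1, a relative of GRHL2, was lower in both lines. It differed from Luci by -1.70 and -2.33 in the CNOT1 and by -1.19 and -1.25 in the CNOT3 line, with 4.77 to 5.85 in these lines and 6.36 to 7.88 in the others. GRHL3, another relative, was between 2.09 and 3.55 in the CNOT1 and CNOT3 lines and between 3.81 and 5.14 in the others. It was not past 2-fold in both Dox states, with -1.16 and -0.72 in the CNOT1 and -2.13 and -0.62 in the CNOT3 line. KLF4 differed by -2.06 and -2.27 in the CNOT3 line, but its ranges of 3.49 to 5.24 and 3.71 to 6.41 overlapped. The median difference of this list was -0.47 for CNOT1 and -1.22 for CNOT3. Of 11 repressors of epithelial genes, SNAI2 was higher in both lines, by 2.46 and 1.81 in the CNOT1 and by 2.02 and 2.27 in the CNOT3 line. It ranged from 8.75 to 9.61 in these lines and from 6.11 to 8.02 in the CNOT2 and Luci lines. SNAI1 was lower in CNOT1 and PRRX1 in CNOT3 cells, but for both the CNOT1 and CNOT3 arrays overlapped the others. ZEB1, another repressor of CDH1, was between 8.48 and 8.83 in the CNOT1 and CNOT3 lines and between 8.93 and 9.61 in the others. TWIST2 was between 7.70 and 8.29 in the former and between 8.34 and 9.38 in the latter. These were the 2 of 11 repressors with all CNOT1 and CNOT3 arrays below all others, as were 4.95% of all genes.

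Of 16 other splicing factors that passed, CELF2 and KHDRBS3 were lower and NOVA1 was higher in both lines, and HNRNPM was higher in the CNOT1 line. CELF2 was between 4.75 and 6.62 in the CNOT1 and CNOT3 and between 7.45 and 8.27 in the CNOT2 and Luci lines, and KHDRBS3 between 6.55 and 7.72 and between 8.95 and 9.95. NOVA1, a neuronal splicing factor, was between 7.81 and 8.72 in the former and between 5.69 and 7.06 in the latter. Of 7 transcripts known to be spliced under ESRP control, 1 was past 2-fold in the CNOT3 line (CD44, higher by 1.87 and 1.33) and none in the CNOT1 line. CD44 was low, and its ranges of 2.34 to 4.71 in the CNOT1 and CNOT3 and 2.25 to 4.18 in the other lines overlapped. The spots do not measure exon use, so splicing itself was not measured. Of 10 genes of epithelial surface and trafficking, CD24 was lower and MAL2 higher in the CNOT3 line, both with overlap between the groups of lines.

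**Figure D5:**
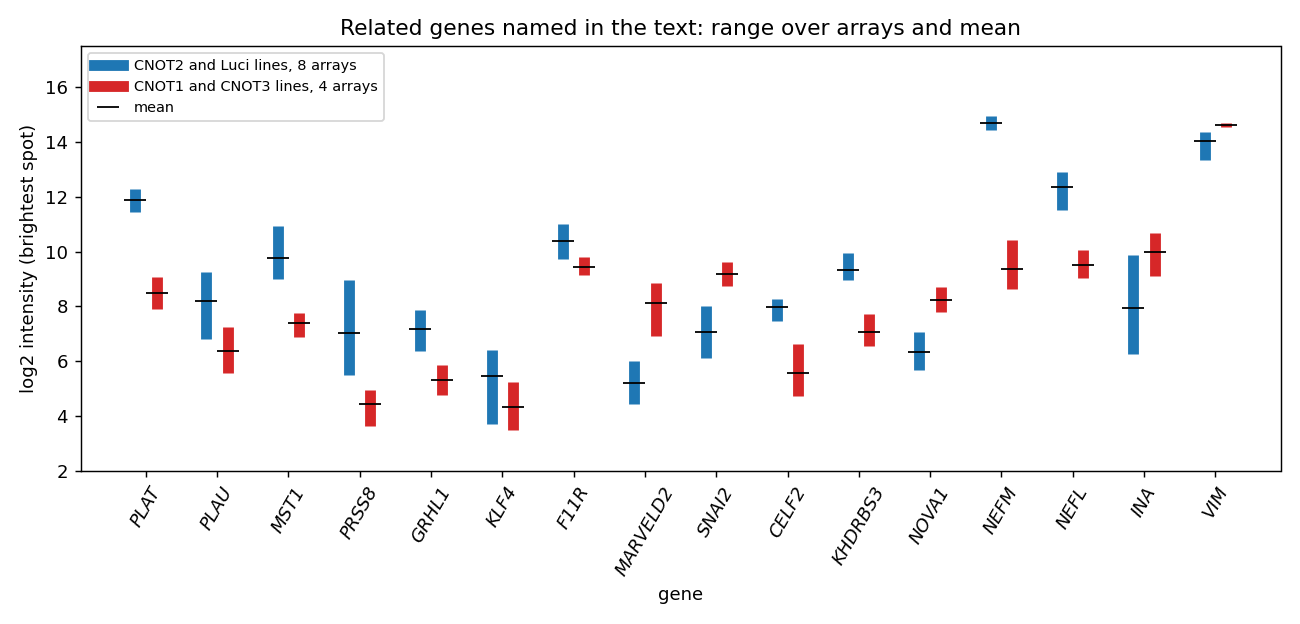
Range over arrays (bars) and mean (black line) of the log2 intensity (y axis) of genes from the lists (x axis), for the 8 arrays of the CNOT2 and Luci lines in blue and the 4 arrays of the CNOT1 and CNOT3 lines in red. PLAT, MST1, PRSS8, GRHL1, CELF2, KHDRBS3, NEFM and NEFL lie lower and MARVELD2, SNAI2, NOVA1 and VIM higher in the CNOT1 and CNOT3 lines without overlap, while PLAU, KLF4, F11R and INA overlap.

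Markers of other cell types were compared because the CNOT1 and CNOT3 lines differed from the Luci line by more than 2-fold in many genes, without a test. VIM, a mesenchymal filament gene, was between 14.55 and 14.70 in the CNOT1 and CNOT3 and between 13.35 and 14.35 in the CNOT2 and Luci lines. Of the 11 mesenchymal genes that passed the filter, SPARC and MMP2 were lower in the CNOT1 line, and COL5A2 was lower and SPARC higher in the CNOT3 line. For these genes the CNOT1 and CNOT3 arrays overlapped the others, and CDH2 was between 9.62 and 10.46 on all arrays. The log2 of the summed intensities of the mesenchymal list was 14.6 to 14.8 in the CNOT1 and CNOT3 and 13.6 to 14.5 in the CNOT2 and Luci lines. This sum mainly reflects VIM, by far the brightest gene of the list, and does not describe the other mesenchymal genes. The median difference of the list from Luci was -0.355 for CNOT1 and 0.3 for CNOT3. Of the 4 neuronal filament genes NEFM and NEFL were lower and INA higher in both lines, and their summed level was 11 to 11.8 against 14.7 to 15.1. Of 8 fibroblast, 6 blood cell and 8 kidney tubule genes measured, 6, 4 and 6 had means below the median of all spots, and the summed levels overlapped for blood cells (5.93 to 6.27 and 5.65 to 6.34), kidney tubule (6.11 to 6.76 and 5.73 to 6.90) and fibroblasts (7.09 to 7.38 and 7.33 to 8.30). Of the blood cell genes, CD14 was higher and CD68 lower in the CNOT1 line, with ranges that overlapped the CNOT2 and Luci lines. SIX2 of the embryonic kidney list was higher in both lines and LHX1 lower in the CNOT1 line, both with overlap between the groups of lines. The part of these differences in the levels of ESRP2, SPINT2 and EPCAM was not tested.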

How the data were processed

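Cy3-labelled RNA of HEK-293T cells (spelled HEK 292T in the labels) was hybridized to Agilent arrays. The authors worked with limma on logarithms of mean spot signals, applying a NormExp background correction based on negative control spots and then quantile normalization. The deposited values, 1 per spot, were used as log2 intensities, a base inferred from their range. Of 62976 spots, 37051 had a gene symbol and named 20088 genes, and each gene was represented by its brightest spot on average. A filter at percentile 25 of the gene means (2.96) was applied.

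Groups came from the sample titles. limma 3.58.1 in R 4.3.3 (lmFit, eBayes without trend) was fitted with 1 mean per group to the 8 CNOT2 and Luci arrays (15031 genes), and to all 12 arrays for Dox in the CNOT1 and CNOT3 lines (15033 genes), with Benjamini-Hochberg adjustment over all genes and a threshold of 0.05. The fit was tested on simulated data. Differences of the CNOT1 and CNOT3 lines from Luci were not tested and were only described or counted, past 2-fold in both Dox states. Deviations of same-numbered arrays from their group means correlated with r of 0.359 to 0.606 over 6 pairs of groups, and the study describes a new and a previous experiment. The numbers were therefore taken to pair the arrays, and a block was run as an alternative. The SEs, intervals and p-values in the text are from the fit without the block unless stated, so they leave this pairing out. Values of the 2 arrays of a group correlated with r of 0.957 to 0.970. The series text speaks of technical replicates, so p-values measure the spread between arrays, which may be technical.

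Genes and lists were chosen with earlier results of these data known. Named are the 10 genes, the 3 targets, the 5 genes most correlated with ESRP2 and with SPINT2 and, per list, up to 2 genes lowest and 2 highest against Luci among those past 2-fold. PRSS8, PLAU in the CNOT3 and MST1 in the CNOT1 line complete small counts, and MET, CTNNB1, ZEB1, TWIST2, GRHL3, CDH2 and VIM were added after their values were seen. Alternatives covered the filter, spot choice, cyclic loess, an intensity trend, the block, single arrays left out, the array with disagreeing labels and the control arrays.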

Additional observations from a re-analysis of the deposited data

How the results depend on the processing

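No member passed the threshold in any of the 9 tested comparisons under any alternative run. For the Dox effects in the CNOT1 and CNOT3 lines minus that in Luci, the alternatives were chosen after seeing the data. The count of all genes called was 0 in the main fit and 0 with a replicate block alone, with each of the 8 CNOT2 and Luci arrays left out in turn (lowest 0, highest 0) and with the array of disagreeing labels taken as Luci +Dox. A replicate block with an intensity trend gave 27 genes for CNOT2 +Dox minus Luci +Dox, 1 for Dox in the CNOT1 and 2 for Dox in the CNOT3 line, and the cause was not tested. EPCAM in CNOT2 +Dox minus Luci +Dox had adjusted p-values from 0.157 (replicate block with an intensity trend) to 1 in limma. Of 1161 values of members under alternatives, 75 changed sign, none of them past the threshold. Against Luci, 484 genes were lower in the CNOT3 line, 297 with a filter at the median, which tests fewer genes, and 964 with Luci replicate 2 as control. The members lower in the CNOT3 line then numbered 2 rather than 3, and EPCAM differed by -2.31 rather than -1.47 on average over both Dox states with Luci replicate 2. ESRP2 and SPINT2 kept their direction against every control tried. A fit for the CNOT1 and CNOT3 lines on the first experiment alone was not run. ESRP1 and GRHL2, below the filter, carry no test, and without a detection call the lowest values of ESRP2, SPINT1 and EPCAM may be background.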
